A study of Homo sapiens with 6 samples.

Results

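The genes described here are 10 transcription factors of the AP-1 and immediate early response: the FOS family genes FOS, FOSB, FOSL1 and FOSL2, the JUN family genes JUN, JUNB and JUND, and ATF3, EGR1 and MYC. They were found by gene symbol in the annotation of the array, and all 10 were measured, among 21448 transcript rows tested. RNA was taken after 48 h from MSTO-211H cells (MSTO), an established human mesothelioma line with a biphasic histology, from 3 cultures given an inhibitor of miR-503 (the anti-miR-503 cultures) and from 3 control cultures, which the labels call biological replicates. The control labels give untreated cells and the vehicle, 0.1% DMSO, whereas the methods of the study name both a negative control inhibitor and untreated cells, so that what the controls received is not settled. Each culture gave 100 ng of RNA for 1 single-colour Clariom S array, whose values are log2 signals. All 6 arrays come from a single cell line and a single time. The p-values measure the spread between these cultures.

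AP-1 is a dimer of a FOS family and a JUN family protein, or of 2 JUN family proteins, that binds DNA through a basic region and a leucine zipper. FOS, FOSB, EGR1 and JUN are immediate early genes: their transcription is switched on within minutes of a growth factor or stress signal, without new protein synthesis, through factors such as SRF, the ternary complex factors (ELK1, ELK3, ELK4) and CREB, and their mRNAs are short-lived. FOSL1 and FOSL2, which encode FRA-1 and FRA-2, lack the strong transactivation domain of FOS and stay on longer under sustained ERK signalling. ATF3 is a stress-induced member of the ATF family, EGR1 is a zinc finger factor held in check by NAB1 and NAB2, and MYC is a helix-loop-helix zipper factor that drives growth genes as a dimer with MAX.

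The inhibitor is directed against miR-503-5p, whose seed (bases 2 to 8, in capitals) is AGCAGCG, while miR-424-5p and miR-16-5p share the seed AGCAGCA. The sequences are shown because an inhibitor pairs with the mature strand, and they are those of RefSeq (GRCh38.p14). MIR503 and MIR424 are neighbours on the minus strand of the X chromosome (mature strands at chrX:134546371-134546393 and chrX:134546680-134546701), and miR-16-5p is made from 2 genes, on chromosomes 13 and 3.
hsa-miR-503-5p: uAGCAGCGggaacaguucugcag
hsa-miR-424-5p: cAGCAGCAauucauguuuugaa
hsa-miR-16-5p: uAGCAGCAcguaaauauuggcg

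RefSeq windows around the start of transcription (250 bases before to 50 after, GRCh38.p14) were found for 8 of the 10 genes, 9 windows in all because ATF3 has 2. FOSL1 and MYC were not matched. The windows of FOSL2 (chr2:28392608-28392907, plus strand), JUN (chr1:58783998-58784297, minus strand), JUND (chr19:18281573-18281872, minus strand) and EGR1 (chr5:138465229-138465528, plus strand) are printed because they hold elements of the kind that AP-1, ATF, SRF and EGR proteins bind. Capitals mark the AP-1 element TGANTCA in FOSL2, the JUN-type element TGACATCA in JUN, the CRE element TGACGTCA in JUND, and an EGR element (GCGNGGGCG) followed by 2 CArG boxes, the element that SRF binds, in EGR1.
FOSL2: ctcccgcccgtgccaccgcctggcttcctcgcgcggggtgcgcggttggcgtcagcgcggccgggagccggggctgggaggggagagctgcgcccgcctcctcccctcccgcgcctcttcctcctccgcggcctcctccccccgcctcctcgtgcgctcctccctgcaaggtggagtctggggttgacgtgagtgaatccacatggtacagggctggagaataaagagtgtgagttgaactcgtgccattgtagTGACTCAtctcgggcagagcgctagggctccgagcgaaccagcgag
JUN: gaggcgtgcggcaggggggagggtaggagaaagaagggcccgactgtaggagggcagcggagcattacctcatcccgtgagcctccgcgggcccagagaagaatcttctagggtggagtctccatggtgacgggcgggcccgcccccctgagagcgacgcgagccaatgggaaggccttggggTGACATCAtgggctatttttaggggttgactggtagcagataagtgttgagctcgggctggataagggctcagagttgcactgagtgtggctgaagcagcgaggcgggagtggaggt
JUND: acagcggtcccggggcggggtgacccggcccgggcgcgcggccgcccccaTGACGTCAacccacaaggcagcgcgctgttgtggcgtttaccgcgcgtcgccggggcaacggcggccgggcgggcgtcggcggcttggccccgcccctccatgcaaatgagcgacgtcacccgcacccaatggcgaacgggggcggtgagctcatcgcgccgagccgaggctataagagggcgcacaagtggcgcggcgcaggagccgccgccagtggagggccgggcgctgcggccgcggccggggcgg
EGR1: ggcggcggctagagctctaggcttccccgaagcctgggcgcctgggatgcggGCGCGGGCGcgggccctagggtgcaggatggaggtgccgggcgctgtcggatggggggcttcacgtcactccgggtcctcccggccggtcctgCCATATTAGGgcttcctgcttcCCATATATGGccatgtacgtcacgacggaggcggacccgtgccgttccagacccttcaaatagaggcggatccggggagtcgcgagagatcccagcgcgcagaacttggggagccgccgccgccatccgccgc

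Each element was searched on both strands, and no 2 of the matches overlapped. TGANTCA was found in the FOSL2 window only, 4 bases past the start, and in 7.71% of all 35116 RefSeq windows of this length. TGACATCA was found 67 bases before the start of JUN and 123 bases before that of ATF3 in its first window, against 2.61% of all windows, and TGACGTCA 200 bases before the start of JUND, against 1.85%. The CArG boxes of EGR1 began 105 and 83 bases before its start (1.29% of all windows hold one), and its EGR element 198 bases before (9.43%). The plain TATA box sequence TATAAA was found 33, 30 and 31 bases before the starts of FOS, FOSB and JUNB. In the second ATF3 window it lay 230 bases before the start. Of all windows 11.5% hold it, at any position. A match describes the letters of the window and is not a binding site.

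**Figure D1:**
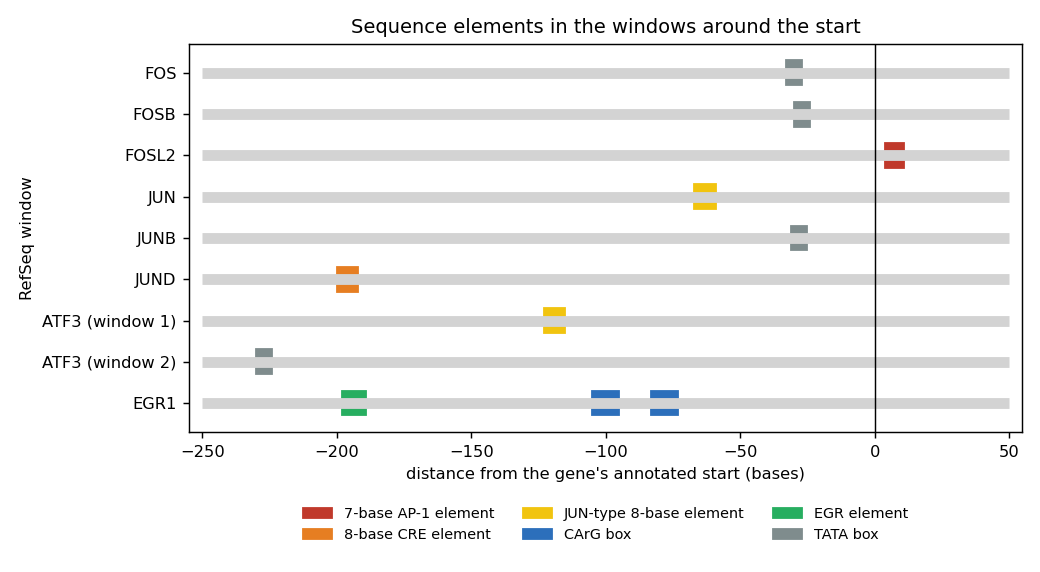
Matches to 6 sequence elements in the 9 RefSeq windows of 8 genes, by distance from the annotated start in bases (x axis), with 1 row a window and 1 coloured box a match. EGR1 holds 3 boxes, an EGR element and 2 CArG boxes, and every other window holds 1.

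The labels and the signals did not sort the arrays alike. Over all rows, anti-miR-503 replicate 1 correlated with its fellow replicates 2 and 3 at r = 0.980 and 0.978, and with the 3 control arrays at 0.984, 0.987 and 0.991. The 10 factors are therefore also given with that array left out, and with control replicate 1 left out, in which several of them were far above the other controls. Both arrays were picked for their values, so the fits without them are descriptions. Leaving out an anti-miR-503 array that lay near the controls tends by itself to widen the differences between the groups. A signal counts as above background when it exceeds 95% of the 612 negative control rows on its own array, a log2 signal of 7.44 to 7.75 for anti-miR-503 and of 7.77 to 8.09 for control. Of 12 mesothelial and mesothelioma markers, 7 were above background on all 6 arrays, among them MSLN and CALB2, and 4 on none, among them WT1 and KRT19, while the 12 measured markers of leukocytes, endothelium and other cell types were below it on all 6.

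None of the 10 factors passed an adjusted p of 0.05 between anti-miR-503 and control arrays, and none passed the 2-fold rule, which asks for at least a 2-fold change with an unadjusted p of 0.05 or less. Of all rows, 0% passed the adjusted threshold in either direction, and 0.872% passed the 2-fold rule higher and 0.914% lower, while 6.42% reached that p whatever their fold, as did 1 of the 10, FOSL2. With unpaired t tests in place of limma, 0 of the 10 passed either rule as well. The log2 fold change, anti-miR-503 over control, was positive for 4 of the 10 (FOSL1, FOSL2, JUN and JUNB) and negative for 6, with a median of -0.08, beside 51.1% positive and a median of 0.01 over all rows. FOSL2 was the only one of the 10 whose groups did not overlap, where 5.92% of all rows did not overlap higher and 4.6% lower in anti-miR-503 cells. The study's own list of deregulated genes gives FOSL2 the opposite direction, and likewise KLF4, ZFP36, IL6, LIF, CXCL8, SPP1, DUSP5 and MXD1 named further on. The study further reports lower CXCL8, IL6 and SPP1 by q-PCR in mesothelioma cell lines after miR-503 inhibition. It also reports less CXCL8 and osteopontin, the protein of SPP1, in treated mouse tumours. Directions here follow the labels of the arrays, and the conflict was not resolved.

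**Figure D2:**
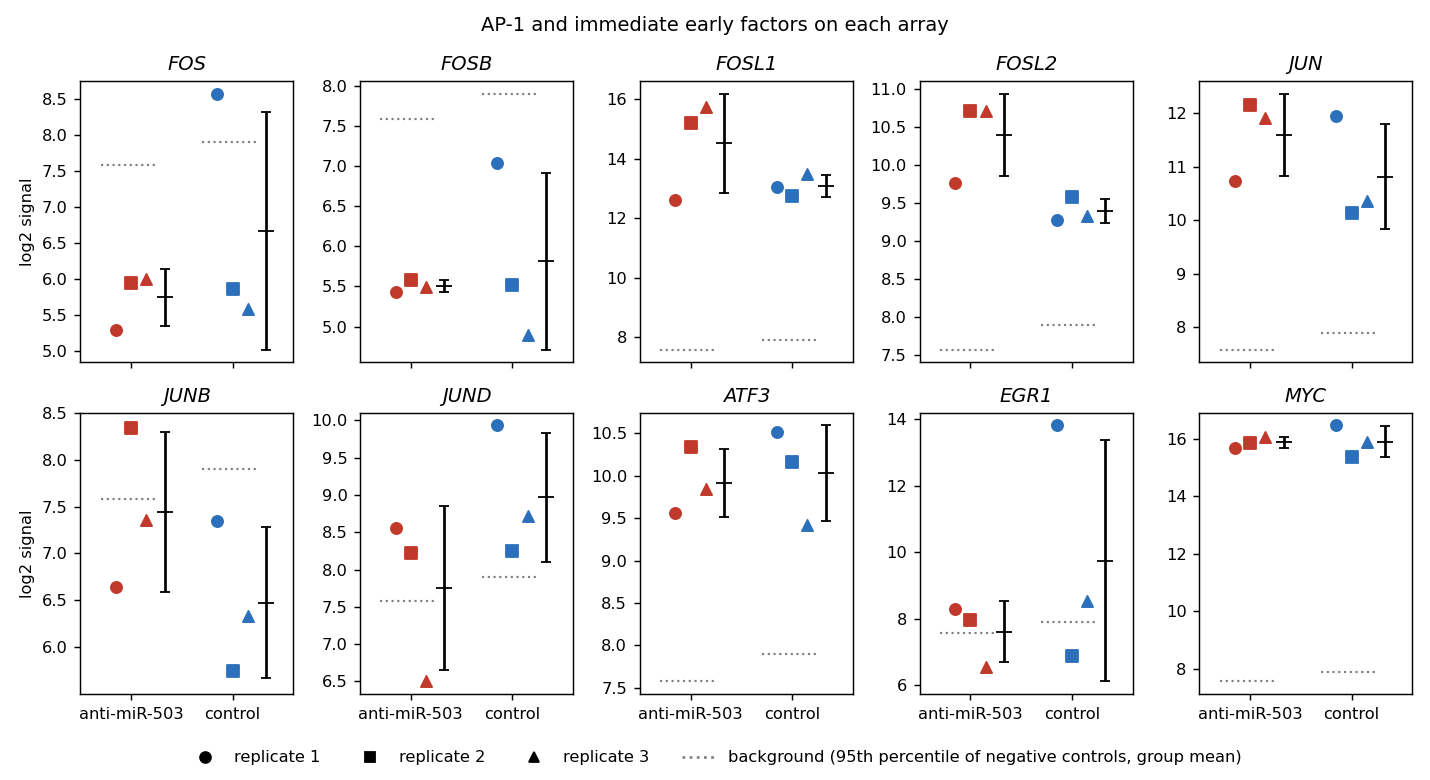
Log2 signal (y axis, scaled for each gene) of the 10 factors on each of the 6 arrays, anti-miR-503 to the left of control, with the mean and SD of 3 arrays as bars and the background as a dotted line. Control replicate 1 is the highest array for 6 genes (EGR1 at 13.82), and anti-miR-503 replicate 1 is the lowest for FOSL1.

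In the FOS family, by the direction of the labels, the late members FOSL2 and FOSL1 had positive log2 fold changes, and FOS and FOSB negative fitted differences. FOSL2, the gene of FRA-2, had log2 signals of 9.77, 10.70 and 10.71 in anti-miR-503 arrays, against 9.28, 9.58 and 9.33 in control arrays. Every anti-miR-503 array was thus above every control array, anti-miR-503 replicate 1 by the smallest margin. The means were 10.39 ± 0.54 for anti-miR-503 and 9.39 ± 0.16 for control (SD, n = 3 each), a log2 fold change of 1.00 (SE, the standard error of the limma fit, 0.30, 95% confidence interval 0.32 to 1.68, adjusted p = 0.756), which falls just short of 2-fold before rounding. The exact permutation test gave p = 0.1, the smallest that 3 against 3 arrays allow. Leaving out anti-miR-503 replicate 1 gave a log2 fold change of 1.31 (adjusted p = 0.0556), and leaving out control replicate 1 gave 0.94 (adjusted p = 0.976).

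FOSL1, the gene of FRA-1, had log2 signals of 12.61, 15.20 and 15.73 in anti-miR-503 arrays, against 13.05, 12.73 and 13.48 in control arrays. The values of anti-miR-503 replicates 2 and 3 lay above all controls and that of replicate 1 below them all. The log2 fold change was 1.43 (SE 0.70, 95% confidence interval -0.18 to 3.03, adjusted p = 0.757). Without anti-miR-503 replicate 1 it was 2.38 (SE 0.31, adjusted p = 0.0276), which made FOSL1 the only one of the 10 past the adjusted threshold in that fit, where 0.359% of all rows passed it in each direction. Without control replicate 1 it was 1.41 (adjusted p = 0.976), and leaving out anti-miR-503 replicate 2 or 3 lowered it to 1.08 or 0.82. The call thus rests on leaving out 1 anti-miR-503 array that was picked because it lay near the controls.

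The immediate early members FOS and FOSB were near or below background. FOS had log2 signals of 5.29, 5.94 and 6.0 in anti-miR-503 arrays, all below background, against 8.57, 5.86 and 5.57 in control arrays, of which only replicate 1 was above it. The means were 5.74 ± 0.39 for anti-miR-503 and 6.67 ± 1.65 for control (SD, n = 3 each), which gives no fold because the anti-miR-503 signals are only bounded by background. The fitted difference of -0.92 (adjusted p = 0.806) was -0.70 when anti-miR-503 replicate 1 was left out and 0.02 when control replicate 1 was. FOSB, the closest relative of FOS, was not above background on any of the 6 arrays. Its signals were 5.43, 5.58 and 5.50 in anti-miR-503 arrays, against 7.04, 5.51 and 4.90 in control arrays, again with control replicate 1 as the highest. The fitted difference of -0.31 (adjusted p = 0.909) became 0.30 when that array was left out, and -0.28 when anti-miR-503 replicate 1 was.

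The balance of FOSL1 and FOSL2 against FOS, and of JUNB against JUN, gives no readable value here, because FOS and JUNB were each above background on only 1 of the 6 arrays.

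In the JUN family, JUN and JUNB had positive and JUND negative log2 fold changes. JUN, the main partner of the FOS proteins, had log2 signals of 10.72, 12.15 and 11.92 in anti-miR-503 arrays, against 11.95, 10.14 and 10.36 in control arrays. Anti-miR-503 replicate 1 lay just above the 2 low controls, and control replicate 1 among the high anti-miR-503 arrays. The log2 fold change was 0.78 (SE 0.53, adjusted p = 0.790). It was 1.22 when anti-miR-503 replicate 1 was left out, 1.35 when control replicate 1 was, and 1.78 when both were (adjusted p = 0.0777). Leaving out anti-miR-503 replicate 2 or control replicate 2 lowered it to 0.50 or 0.44.

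JUNB, which can restrain JUN, had log2 signals of 6.64, 8.34 and 7.36 in anti-miR-503 arrays, against 7.34, 5.75 and 6.33 in control arrays. Only anti-miR-503 replicate 2 was above background, so no fold is given. The fitted difference was 0.97 (SE 0.50, adjusted p = 0.762), with 1.37 without anti-miR-503 replicate 1 and 1.41 without control replicate 1, but 0.53 without anti-miR-503 replicate 2, the array above background, and 0.61 without control replicate 2. JUND, the JUN gene least dependent on stimulation, had log2 signals of 8.55, 8.22 and 6.50 in anti-miR-503 arrays, against 9.93, 8.25 and 8.72 in control arrays. Anti-miR-503 replicate 3 alone was below background, replicate 1 lay between control replicates 2 and 3, and replicate 2 just below them. Its log2 fold change was -1.21 (SE 0.59, 95% confidence interval -2.55 to 0.13, adjusted p = 0.756), with -1.61 (adjusted p = 0.270) when anti-miR-503 replicate 1 was left out and -0.73 when control replicate 1 was. Leaving out anti-miR-503 replicate 3, the array below background, gave -0.58.

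For ATF3, EGR1 and MYC the difference between the groups did not exceed the spread of the arrays. The stress factor ATF3 had log2 signals of 9.56, 10.34 and 9.84 in anti-miR-503 arrays, against 10.52, 10.16 and 9.41 in control arrays, a log2 fold change of -0.12 (95% confidence interval -0.88 to 0.65, adjusted p = 0.960). MYC was far above background on all arrays, with 15.69, 15.87 and 16.07 in anti-miR-503 arrays, against 16.47, 15.37 and 15.89 in control arrays, a log2 fold change of -0.03 (95% confidence interval -0.72 to 0.66, adjusted p = 0.987). Both intervals hold changes of either sign. Leaving out control replicate 1 turned the signs, to 0.13 for ATF3 and 0.25 for MYC, and so did leaving out anti-miR-503 replicate 1, to 0.06 for each.

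EGR1 had the widest spread of the 10. Its log2 signals were 8.29, 7.96 and 6.56 in anti-miR-503 arrays, against 13.82, 6.89 and 8.53 in control arrays, so that 2 arrays of each group were above background and 1 control array stood far above the rest. The log2 fold change was -2.14 (SE 1.49, 95% confidence interval -5.54 to 1.25, adjusted p = 0.791). Leaving out control replicate 1 gave -0.10, leaving out anti-miR-503 replicate 1 gave -2.49, and leaving out control replicate 2 gave -3.57, which passed the 2-fold rule in that fit (0.928% of all rows did higher and 1.17% lower), as did FOSL2 and JUND, and 3 of the 10 did not overlap (10.8% higher and 9.04% lower).

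**Figure D3:**
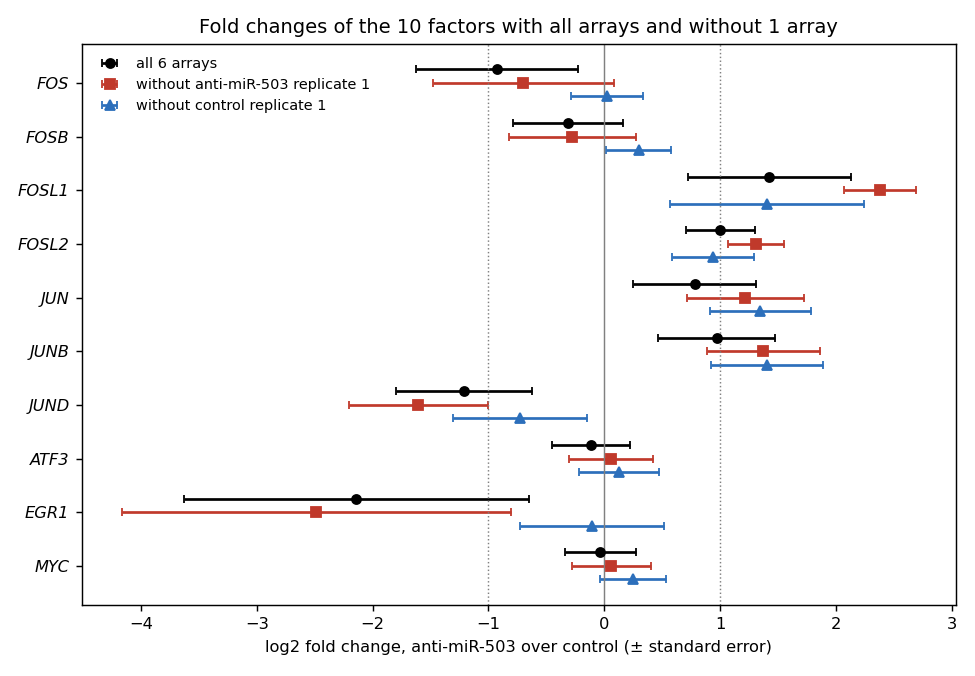
Log2 fold change of each factor, anti-miR-503 over control (x axis, bars are the SE of the limma fit, dotted lines mark 2-fold), for all 6 arrays and after leaving out anti-miR-503 replicate 1 or control replicate 1. FOSL1 is at 1.43, 2.38 and 1.41 in these 3 fits, and EGR1 at -2.14, -2.49 and -0.10.

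One control culture had high signals of many early response genes. In control replicate 1, 6 of the 10 factors were at least 2-fold above the mean of control replicates 2 and 3, where 2.81% of all rows were, and none was 2-fold below it, where 2.54% were. JUN and JUND, above background on all control arrays, exceeded that mean by 1.70 and 1.45 on the log2 scale, and EGR1, below background in control replicate 2, by 6.11. FOS was above background in control replicate 1 alone, and FOSB and JUNB, though among the 6, in none of the controls, so no size is given for these 3. FOSL1 and FOSL2 did not share it, at -0.05 and -0.18. Of 18 other immediate early genes measured, 6 were at least 2-fold higher in that array. Among them were CCN2, a secreted matricellular protein (3.34), IER2 (2.95) and the orphan nuclear receptor NR4A1 (2.69), chosen for this excess after their values were seen. NR4A1 was below background in control replicate 2, so its 2.69 rests in part on a signal that is only bounded. NR4A3, also among the 6, was not above background on any array. Control replicate 1 was the highest of the 6 arrays for 6 of the 10 factors and 8 of the 18 other genes, against 17.6% of all rows. It was also the highest for 7 of 15 MYC target genes and 4 of 9 stress genes around ATF3, but for no more than 14.3% of any other gene list used here. Without it JUN and JUNB passed the 2-fold rule, 2 of the 10, where 0.573% of all rows did higher and 0.713% lower, and 3 of the 10 did not overlap, where 9.55% of all rows did not overlap higher and 8.19% lower. What set this culture apart was not tested.

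Anti-miR-503 replicate 1 stood apart too, largely in factors that also set control replicate 1 apart (JUN, JUNB, JUND and EGR1). Of the factors named next, only FOSL1 was not among those of control replicate 1. Anti-miR-503 replicate 1 was at least 2-fold below the mean of anti-miR-503 replicates 2 and 3 for FOSL1 (-2.86 on the log2 scale), JUN (-1.31) and JUNB (-1.21), 3 of the 10 where 4.39% of all rows were, and for 8 of the 18 other immediate early genes. For JUND and EGR1 it was above them by 1.19 and 1.03, where 5.09% of all rows were at least 2-fold higher. Without it 5 of the 10 passed the 2-fold rule, FOSL1, FOSL2, JUN and JUNB higher and JUND lower, where 2.42% of all rows did higher and 3.81% lower, and 4 of the 10 did not overlap (16% of all rows higher, 15.9% lower). Without both arrays, an alternative chosen after the values were seen, FOSL1 (2.36), JUNB (1.81), JUN (1.78) and FOSL2 (1.25) passed it, where 2.42% of all rows did higher and 3.87% lower. None of the 10 had an adjusted p under 0.05 in that fit, where 0.126% of all rows did higher and 0.0699% lower, and 6 did not overlap (21% of all rows higher, 21.3% lower). JUNB counts in these fits although no control array measured it above background. Why this culture stood apart was not tested.

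**Figure D4:**
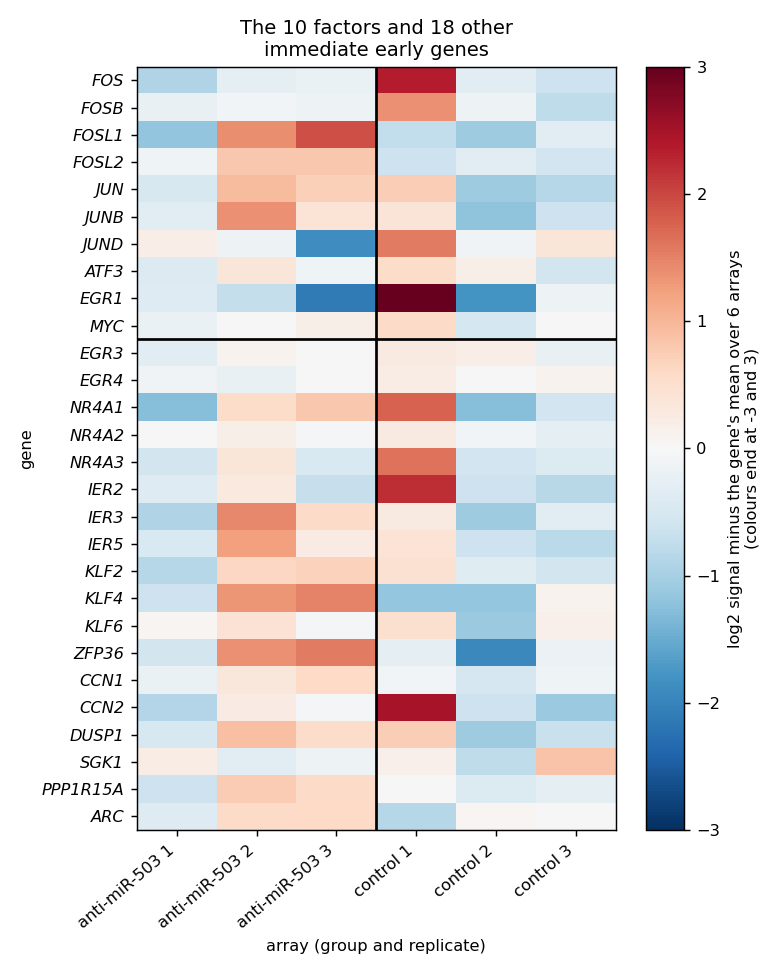
Log2 signal of the 10 factors (above the line) and 18 other immediate early genes (below it) on each array, minus the gene's mean over the 6 arrays, with colours that end at -3 and 3. The column of control replicate 1 is dark red for EGR1, FOS, IER2 and CCN2, and anti-miR-503 replicate 1 is blue for FOSL1, NR4A1 and IER3 where replicates 2 and 3 are red.

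The other immediate early genes gave 2 of 18 past the 2-fold rule, both higher, where 0.872% of all rows passed it higher and 0.914% lower. ZFP36, which encodes an mRNA-destabilizing protein, had log2 signals of 9.76, 11.68 and 11.86 in anti-miR-503 arrays, against 10.03, 8.37 and 10.12 in control arrays, a log2 fold change of 1.59 (SE 0.63, adjusted p = 0.756, 2.26 and 1.85 with anti-miR-503 replicate 1 or control replicate 1 left out). KLF4, a zinc finger factor, was not above background on any control array, with 6.06, 8.02 and 8.18 in anti-miR-503 arrays, against 5.53, 5.53 and 6.78 in control arrays, and gives no fold for that reason. Its call was lost when control replicate 1 was left out. In both genes anti-miR-503 replicate 1 was low and lay within the range of the controls. The median log2 fold change of the 18 was 0.31, which became 0.71 on leaving out anti-miR-503 replicate 1 and 0.60 on leaving out control replicate 1.

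Of 14 measured kinases and factors upstream of the immediate early genes, 0 passed the 2-fold rule in either direction, with a median of 0.04. The 2 with the smallest p were MRTFA, an SRF coactivator below background on all 6 arrays, and ELK3, a ternary complex factor. ELK3 had log2 signals of 9.10, 10.47 and 10.49 in anti-miR-503 arrays, against 8.79, 9.51 and 9.24 in control arrays (log2 fold change 0.84, SE 0.40, adjusted p = 0.756), and passed the 2-fold rule at 1.30 when anti-miR-503 replicate 1 was left out. The other AP-1 and partner genes of the leucine zipper class gave 0 of 8, with 6 of the 8 below background on all arrays. JDP2, which represses AP-1 sites as a JUN partner, had a log2 fold change of -0.80 (SE 0.33, adjusted p = 0.756) and passed the rule at -1.09 without anti-miR-503 replicate 1. In that fit 2.42% of all rows passed it higher and 3.81% lower. BATF was below background throughout.

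Genes known as AP-1 targets gave 4 of 21 past the 2-fold rule, all higher by the labels, with a median log2 fold change of 0.17, where 0.872% of all rows passed it higher and 0.914% lower. The list was drawn up with earlier results of these data known, and the study had already picked SPP1, IL6 and CXCL8 from these arrays. Counts over it are therefore no test of AP-1 targets as a set. SPP1, the gene of osteopontin, had log2 signals of 11.03, 15.65 and 15.30 in anti-miR-503 arrays, against 5.94, 12.02 and 9.40 in control arrays, a log2 fold change of 4.88 (SE 1.59, adjusted p = 0.756, 6.36 and 3.29 with anti-miR-503 replicate 1 or control replicate 1 left out). The groups overlapped, since anti-miR-503 replicate 1 lay below control replicate 2. Control replicate 1 was below background (7.83 on that array), so the 4.88 and 6.36 rest in part on a signal that is only bounded. The 3.29 leaves that array out. The cytokine genes IL6, LIF and CXCL8 were above background on 2 anti-miR-503 arrays and on no control array. IL6 had 7.73, 9.26 and 9.67 in anti-miR-503 arrays, against 6.84, 6.60 and 7.29 in control arrays. Its anti-miR-503 mean was 1.99-fold above the control background, and that of LIF 1.68-fold (limma adjusted p = 0.756 for each gene between the groups). CXCL8, named because it completes the 4, gives no fold against this bound. The bound sets the mean of the anti-miR-503 arrays against the background of the control arrays. Anti-miR-503 replicate 1 was itself below background for these cytokine genes, so the folds are no strict minimum.

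Without anti-miR-503 replicate 1, 6 of the 21 targets passed the 2-fold rule, all higher, and IL6, LIF and CXCL8 also passed the adjusted threshold. In that fit 2.42% of all rows passed the 2-fold rule higher and 3.81% lower, and 0.359% the adjusted threshold in each direction. The array was picked because it lay near the controls, so these calls are a description and no test. PLAUR, the receptor of urokinase, and TGFB1 joined the 4, at fitted differences of 2.38 and 1.27 (chosen after their values were seen), with PLAUR below background on all controls. The matrix metalloproteinases, the best known AP-1 targets, could not be read here. MMP1, MMP3, MMP9, MMP10 and MMP13 were below background on all 6 arrays. That they did not pass the 2-fold rule in either fit therefore says nothing about their response. The target list overlaps with cytokine genes that other factors also drive, so it is not specific to AP-1.

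**Figure D5:**
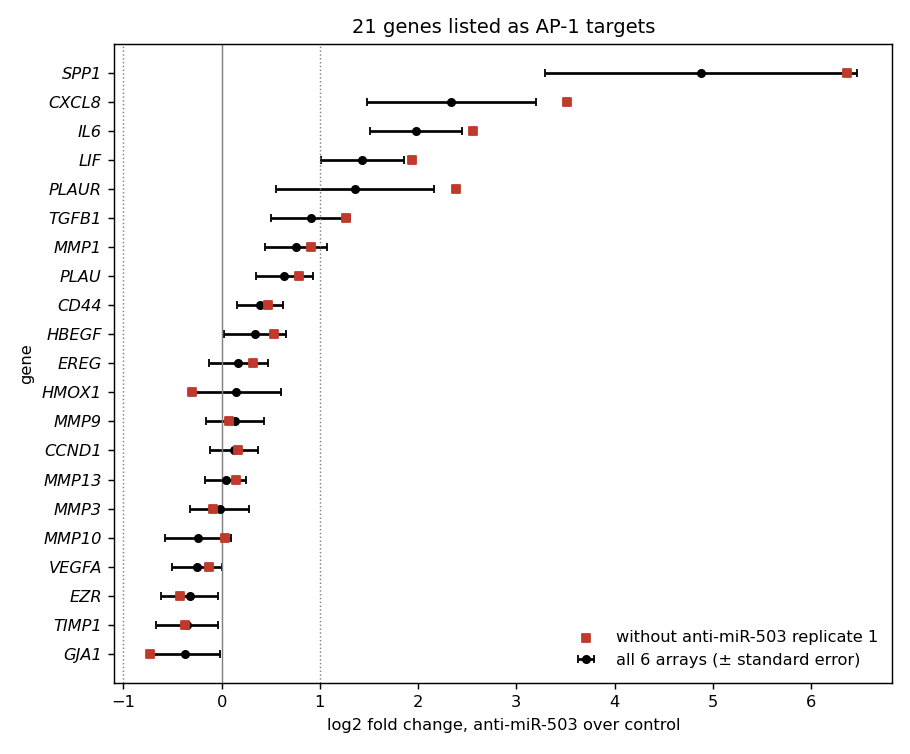
Log2 fold change, anti-miR-503 over control (x axis, dotted lines mark 2-fold), of 21 genes listed as AP-1 targets, as black points with the SE for all 6 arrays and as red squares without anti-miR-503 replicate 1. SPP1, CXCL8, IL6 and LIF lie past 2-fold with all arrays, and PLAUR does too without passing the p threshold.

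The partners of the 3 remaining factors gave 1 call, where 0.872% of all rows passed the 2-fold rule higher and 0.914% lower. Of 11 genes that pair with or oppose MYC, MXD1, which competes with MYC for MAX, passed the 2-fold rule, with log2 signals of 9.12, 9.84 and 9.48 in anti-miR-503 arrays, against 8.23, 8.20 and 8.95 in control arrays (log2 fold change 1.02, SE 0.30, adjusted p = 0.756), and its groups did not overlap (5.92% of all rows did not overlap higher and 4.6% lower). It was 1.21 when anti-miR-503 replicate 1 was left out, and 0.91, short of 2-fold, when control replicate 1 was. Of 15 measured MYC target genes 0 passed, with a median of -0.04, and the 2 with the smallest p were SRM, spermidine synthase (-0.76), and NOP58, a core protein of box C/D ribonucleoproteins (-0.53). The EGR1 corepressors NAB2 and NAB1 were at 0.56 and 0.18, NAB2 below background on all arrays. Of 9 stress genes around ATF3 0 passed, the smallest p being those of DDIT3, the gene of CHOP (0.87), and CEBPB (0.43). DDIT3 passed the rule at 1.26 when anti-miR-503 replicate 1 was left out, where 2.42% of all rows did higher and 3.81% lower.

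For each factor above background on at least 3 arrays, the 2 genes most like it over the 6 arrays were taken from 8124 genes above background on at least 3 arrays, as a description, since with 6 points high correlations are frequent. The nearest to FOSL1 were HMGA1, an architectural chromatin protein (r = 0.996, rho = 1), and ANKRD50 (r = 0.995). FOSL2 was most like DPY30 (r = 0.999), a subunit of histone methyltransferase complexes, and DUSP5 (r = 0.998, rho = 0.943), a nuclear ERK phosphatase. DUSP5 had log2 signals of 11.90, 13.95 and 13.87 in anti-miR-503 arrays, against 11.04, 11.52 and 11.23 in control arrays, so its arrays had the order of those of FOSL2, anti-miR-503 replicates 2 and 3 apart, over a wider range (log2 fold change 1.98, SE 0.51, limma adjusted p = 0.756).

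JUN was most like DUSP1, a MAP kinase phosphatase (r = 0.994, rho = 1), and CCNE1, the gene of cyclin E1 (r = 0.993). CCNE1 was below background in anti-miR-503 replicate 1 and in control replicates 2 and 3. DUSP1 had log2 signals of 14.06, 15.44 and 15.08 in anti-miR-503 arrays, against 15.27, 13.46 and 13.88 in control arrays, with the same high control replicate 1 as JUN. EGR1 was nearest to NOC4L (r = 0.997) and TIMP1, a metalloproteinase inhibitor (r = 0.996), and these correlations were 0.973 and 0.957 without control replicate 1. The genes nearest to JUND were TYW1 and PRPF38B, those nearest to ATF3 were PRPF4 and FUCA2, and those nearest to MYC were ENTREP3 and DUSP7 (r = 0.978 each). DUSP7 was below background on the same arrays as CCNE1, ENTREP3 in anti-miR-503 replicate 1 and control replicate 2, and TYW1 in anti-miR-503 replicate 3. Genes with r over 0.9 numbered 261 for FOSL2, 231 for FOSL1, 76 for JUN and 26 for MYC.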

How the data were processed

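The authors ran RMA in Transcriptome Analysis Console, which corrects background, normalizes the arrays by quantiles and summarizes probes, and deposited 1 log2 signal for each transcript row and array. These values were used as they stand. The build behind the array's annotation is not stated, so positions are given for RefSeq sequences alone. After removal of 2903 control rows, 21448 of 24351 rows entered a limma fit (version 3.58.1, R 4.3.3, lmFit then eBayes), and p-values were adjusted by Benjamini-Hochberg across all of them. A symbol was available for 17709 rows. If several rows shared one (20 symbols), that with the highest mean was kept. Read depth does not apply to arrays, and 3 arrays per group limit the precision. The fit was tested on simulated data.

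All 10 factors are named. Of each other list, up to 3 genes past the 2-fold rule with the smallest p are named, or 2 where none passed, and for each factor the 2 genes nearest to it. CXCL8, PLAUR, TGFB1, the matrix metalloproteinases, CCN2, IER2, IER3, NR4A1 and NR4A3 are named outside this rule, after their values were seen. Factors, lists and tests were chosen with earlier results of these data known. The alternatives covered the variance model, the t test, row filters, scaling, array weights, a replicate block, the fold threshold and left-out arrays. Some genes are not reported here. Matplotlib 3.10.9 drew the figures.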

Additional observations from a re-analysis of the deposited data

How the results depend on the processing

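With all 6 arrays, 187 rows passed the 2-fold rule higher and 196 lower, and 0 the adjusted threshold. These counts were 38 and 55 with the unpaired t test, 118 and 123 over rows at or above the median level, 342 and 411 with array weights and 613 and 617 at 1.5-fold. They were 200 and 175 after a second quantile normalization and 213 and 170 after median centring. Leaving out 1 array in turn gave 81 to 519 higher and 82 to 818 lower, and 0 to 77 past the adjusted threshold in each direction, with 77 only without anti-miR-503 replicate 1. Without that array and control replicate 1, added after the values were seen, 520 and 829 passed the 2-fold rule and 27 and 15 the adjusted threshold. The causes were not tested.

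Of the 10 factors, 0 passed the 2-fold rule with all arrays, 1 (FOSL2) after a second quantile normalization, after median centring of the arrays or at 1.5-fold, 3 (FOSL1, FOSL2, JUNB) with array weights, 0 to 5 when 1 array was left out in turn (5 for anti-miR-503 replicate 1, 3 for control replicate 2, namely FOSL2, JUND and EGR1, and 2 for control replicate 1), and 4 without both replicates 1. The adjusted threshold was passed by 0 to 1 of the 10 factors when 1 array was left out. Groups did not overlap for 1 factor with all arrays, for 1 to 4 when 1 was left out (4 when it was anti-miR-503 replicate 1, 3 when it was control replicate 1 or 2) and for 6 without both. MYC turned from -0.03 to 0.0004 with median centring and 0.0652 with array weights, and leaving out 1 array in turn gave -0.30 to 0.25 for MYC, -0.43 to 0.13 for ATF3, -0.77 to 0.30 for FOSB and -1.47 to 0.02 for FOS. Without both replicates 1 these were 0.34, 0.31, 0.33 and 0.25. FOSL1, FOSL2, JUN, JUNB, JUND and EGR1 kept their sign in every alternative.

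Whether the replicate numbers pair the cultures is not settled, since 3 arrays per group are too few to decide it. Deviations of arrays with the same number had correlations of -0.10, 0.21 and 0, and those with different numbers -0.33 to 0.25. With the replicate number as a block 2 factors passed the 2-fold rule, namely FOSL1 (higher) and JUND (lower). In that fit 197 of all rows passed it higher and 228 lower. FOSL1 passed narrowly, at an unadjusted limma p of 0.0498, and JUND at 0.0293. Signals near background limit FOS, FOSB, JUNB, JUND and EGR1.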
